A study of Amorphotheca resinae with 20 samples.

Results

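The genes described here are 19 of the 18830 gene models counted in the filamentous fungus Amorphotheca resinae ZN1, chosen because they were higher with acetic acid and not with formic acid. For each of 7 inhibitors, R was taken as the log2 ratio of the mean CPM (read counts scaled to a common library total) of the treated libraries plus 1 to the mean of that experiment's own control plus 1. A gene was a member when its largest absolute R of the 7 was that for acetic acid, its R for acetic acid was at least 1.5 and its R for formic acid was under 0.5. With acetic acid the 19 genes ran from 3.05 to 1244 CPM, and their R from 1.502 to 3.34. The R values against the controls chose these genes, so they are given as a description with no test.

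All samples were mycelia of the wild-type strain ZN1, grown at 28 °C in potato-dextrose agar medium and harvested at 4 h, with 2 libraries in each of 10 groups. In the weak acid experiment the dose was 2.0 g/L of acetic or 4.0 g/L of formic acid. In the furan experiment, furfural or 5-hydroxymethylfurfural (HMF) was given at 1.0 g/L. In the phenolic aldehyde experiment the dose was 0.1 g/L, of vanillin, of syringaldehyde or of 4-hydroxybenzaldehyde. Each experiment had its own control. The labels do not say whether the duplicates were separate cultures, so spreads and p-values refer to these samples only and may be technical, and they do not give the pH of the media.

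Acetic and formic acid are weak acids set free, with furans and phenolic aldehydes, when plant biomass is pretreated. Their undissociated forms cross the plasma membrane and release protons in the cytoplasm. Many fungi can use acetate as a carbon source, by joining it to coenzyme A with acetyl-CoA synthetase and passing it through the glyoxylate cycle, whereas formate is usually oxidised to carbon dioxide by formate dehydrogenase. Which of the 19 genes, if any, belong to these routes is unknown here. The count tables do not pair identifiers with gene names or products, and 0 of the 18830 identifiers matched a table of 9642 RefSeq genes of another A. resinae strain (assembly Amore1), so genes are given by identifier and no sequence is shown.

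The libraries held 11601181 to 26106956 counts. The acetic acid libraries held 16430097 and 18093936 counts, the acid controls 18275236 and 19657606, and the formic acid libraries 20189482 and 18426561 (replicates 1 and 2, an order kept for all paired values). The formic acid dose was the higher by mass, so each difference between the acids is also a difference in dose.

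Few genes passed the selection. Of the 18830 genes, 107 had an R of at least 1.5 for acetic acid; 87 of these had an R for formic acid of 0.5 or more, and 20 had less. One of the 20, ARZ_5239_T1, was left out because its R for furfural (1.62) was above that for acetic acid (1.51). The members nearest inside the acetic acid limit were ARZ_3310_T1 (R 1.502, from 7.36 CPM in the control to 22.7 CPM) and ARZ_4079_T1 (R 1.503, from 2.54 to 9.03 CPM). Just outside it lay ARZ_12940_T1 (1.48) and ARZ_10729_T1 (1.46). On the formic acid side, ARZ_3310_T1 (0.48) and ARZ_8569_T1 (0.46) were nearest inside, and ARZ_11166_T1 (0.53) and ARZ_1063_T1 (0.55) just outside. The edges of the list therefore fell between genes with nearly the same values.

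**Figure D1:**
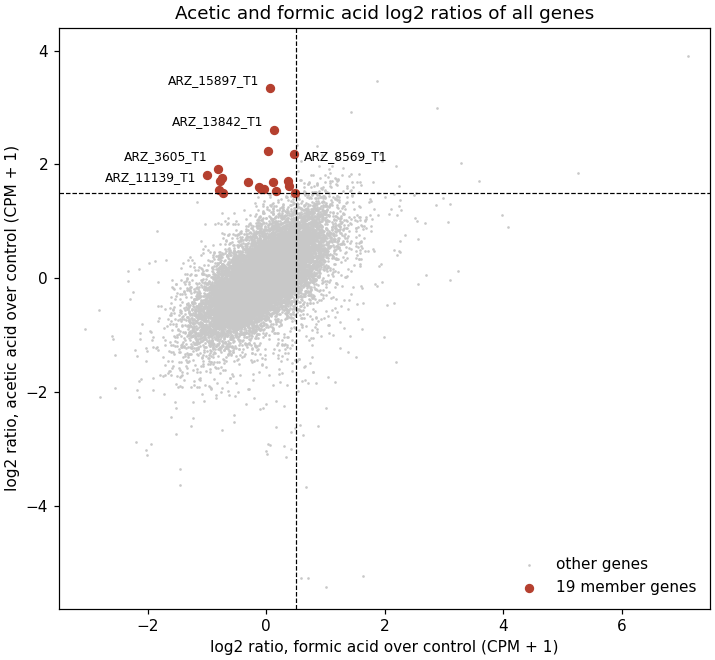
Log2 ratio over the acid control for formic acid (horizontal) and acetic acid (vertical), both from mean CPM plus 1 of 2 libraries a group; each grey point is 1 of the 18830 genes and the 19 member genes are red. The dashed lines mark the limits of 0.5 and 1.5, and most genes that were high with acetic acid lie to the right of the vertical line.

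ARZ_15897_T1 stood highest in the ratio. Its level was 28.0 and 23.7 CPM in the acid controls, 288 and 252 CPM with acetic acid, and 28.3 and 25.9 CPM with formic acid. The acetic acid libraries lay far above the other 4, while control and formic acid libraries overlapped. Its R was 3.34 for acetic and 0.07 for formic acid, and the mean CPM with acetic acid was 10.5 times that of the control.

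The next genes in order, ARZ_13842_T1 and ARZ_13841_T1, carry consecutive numbers and were nearly silent without acetic acid. ARZ_13842_T1 had 25 and 45 reads in the controls, 250 and 313 with acetic acid, and 36 and 44 with formic acid, or 1.83 ± 0.651, 16.3 ± 1.47 and 2.09 ± 0.428 CPM (mean ± SD, n = 2). ARZ_13841_T1 had 15 and 8 reads in the controls, 101 and 126 with acetic acid, and 15 and 10 with formic acid. In both genes the acetic acid libraries stood apart and the control and formic acid libraries overlapped. Their R for acetic acid was 2.61 and 2.23. The added 1 CPM holds down such ratios at low levels: the plain ratio of mean CPM was 8.89 for ARZ_13842_T1 and 10.7 for ARZ_13841_T1, the latter as large as for ARZ_15897_T1.

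ARZ_8569_T1 was at 55.9 and 44.5 CPM in the controls and at 243 and 223 CPM with acetic acid. With formic acid it was at 65.3 and 74.0 CPM, also above both controls but far below the acetic acid libraries (R 2.19 for acetic and 0.46 for formic acid). With TMM or median-of-ratios scaling ARZ_8569_T1 no longer met the limit for formic acid. ARZ_11139_T1 was at 94.4 and 63.2 CPM in the controls, 268 and 291 CPM with acetic acid, and 42.4 and 35.0 CPM with formic acid. The acids lay on opposite sides of the control for this gene, with R of 1.81 and −1.01, the lowest R for formic acid among the members.

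The 4 most abundant members all had over 100 CPM in the acid control. ARZ_445_T1 was at 388 and 382 CPM in the controls, 1212 and 1276 CPM with acetic acid, and 340.4 and 283 CPM with formic acid. ARZ_4922_T1 was at 276 and 375 CPM in the controls, 1035 and 1090.4 CPM with acetic acid, and 189 and 189.5 CPM with formic acid. In both genes all 3 groups were separate, with formic acid lowest. ARZ_5863_T1 and ARZ_1260_T1 reached 719 ± 101 and 535 ± 51.7 CPM with acetic acid from 242 ± 13.8 and 183 ± 37.2 CPM in the controls (mean ± SD, n = 2). With formic acid they were at 226 ± 13.0 and 105 ± 4.08 CPM. The R for acetic acid of these 4 genes lay in a narrow band, 1.55 to 1.70, and their R for formic acid between −0.79 and −0.10.

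In the acid control 8 members had under 3 CPM, where read counts limit the precision: these genes had 6 to 61 reads in a control library and 52 to 313 with acetic acid. Their R for acetic acid ran from 1.503 to 2.61. ARZ_1634_T1, one of them, had 59 and 34 reads in the controls, 173 and 201 with acetic acid, and 29 and 13 with formic acid, so it too lay below its control with formic acid (R −0.75). The other 7 members, with 5.05 to 78.8 CPM in the control, reached 18.4 to 279 CPM with acetic acid. The median control level of the 19 was 6.59 CPM, against 16.0 CPM over all genes.

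**Figure D2:**
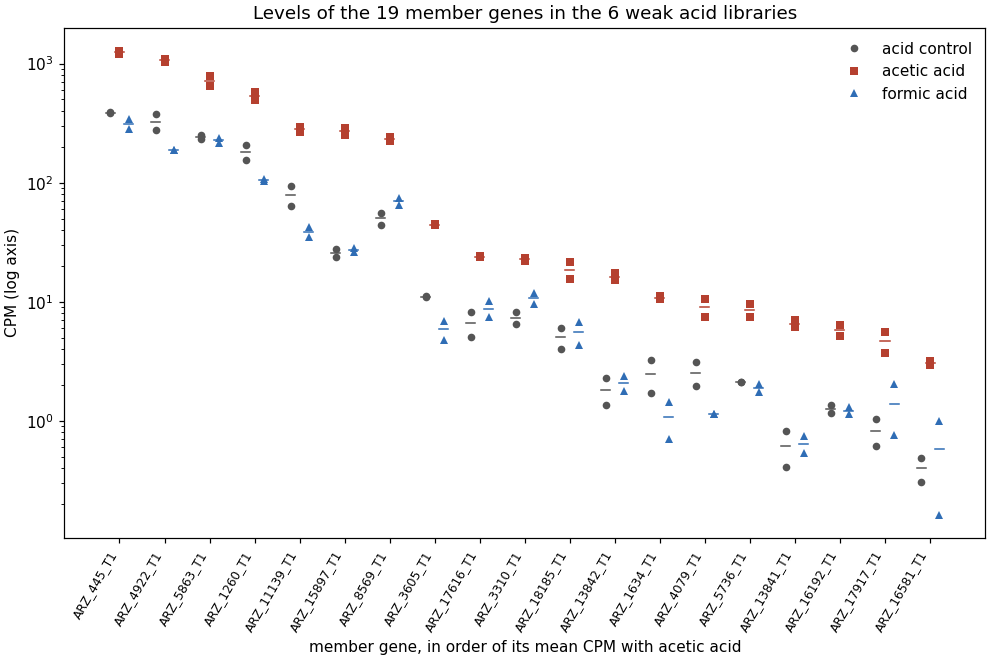
CPM on a log axis of each of the 19 member genes in the 6 weak acid libraries; each symbol is 1 library (grey circles acid control, red squares acetic acid, blue triangles formic acid) and short lines are means of 2 libraries. The acetic acid squares lie above the other symbols for every gene, while the triangles lie below, among or above the circles.

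The 2 acetic acid libraries were close for most members: the higher was 1.02 to 1.503 times the lower, with a median of 1.13, and the widest gap was that of ARZ_17917_T1. Both acetic acid libraries lay above both control libraries in 19 of 19 members, where 31.7% of all genes did so. They lay above both formic acid libraries in 19 of 19, where 37.0% of all genes did. The selection, made on group means, bears on both counts, and nothing is read from them. In 18 of the 19, both acetic acid libraries also lay above all 18 other libraries of the study, which 3.59% of all genes did; the selection bears on this count too, and nothing is read from it. The exception was ARZ_11139_T1, whose replicate 1 with vanillin was at 298 CPM. Levels set across experiments come from separate tables and are scaled by library totals only.

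Summed over the 19 genes, the level was 4370.2 and 4666 CPM with acetic acid, 1277 and 1387 CPM in the acid controls, and 1035 and 982 CPM with formic acid. It was 2020.4 and 2120.0 CPM with furfural against 1257 and 1303 CPM in the furan controls, and 1797 and 1743 CPM with 4-hydroxybenzaldehyde against 1440.2 and 1408 CPM in the phenolic aldehyde controls. With vanillin it was 1246 and 1229 CPM and with syringaldehyde 1007 and 1173 CPM, all below both of these controls, and with HMF 1361 and 1309 CPM, above both furan controls. These sums are mostly the 4 abundant genes.

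The selection left no member with an R of 0.5 or more for formic acid. An R under −0.5 was found for 6: ARZ_11139_T1 (−1.01), ARZ_3605_T1 (−0.81), ARZ_1260_T1 (−0.79), ARZ_4922_T1 (−0.78), ARZ_1634_T1 (−0.75) and ARZ_4079_T1 (−0.73). Over all genes, 18.7% had an R under −0.5 for formic acid. ARZ_3605_T1, with 11.1 and 10.99 CPM in the controls, was at 44.9 and 44.0 CPM with acetic acid and 4.75 and 6.95 CPM with formic acid, so its 3 groups did not overlap. The other 13 had an R between −0.30 and 0.48. Among them both formic acid libraries lay above both controls for ARZ_8569_T1 and ARZ_3310_T1 (11.8 and 9.55 CPM against 8.21 and 6.51 CPM for the latter). They lay below both controls for ARZ_445_T1 and ARZ_5736_T1 (2.03 and 1.74 CPM against 2.134 and 2.137 CPM for the latter). The share of all genes separated in this way was not counted. The median R for formic acid was −0.03 over the members and −0.06 over all genes. The largest gaps between the acids in R were those of ARZ_15897_T1 (3.27) and ARZ_11139_T1 (2.82).

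Under the furans and phenolic aldehydes the members did not move as a block. The median R of the members was −0.04 for furfural, −0.03 for HMF, −0.23 for vanillin, 0.06 for 4-hydroxybenzaldehyde and −0.40 for syringaldehyde, beside medians between −0.05 and 0.00 over all genes. For syringaldehyde 15 of the 19 had an R below 0, where the median over all genes was 0. The share of all genes below 0 was not counted. Of the 19, 6 had an R under −0.5 for syringaldehyde, where 15.4% of all genes did. The selection capped the size of these ratios but not their sign. The extremes were ARZ_5863_T1 (1.13) and ARZ_8569_T1 (−0.91) for furfural, ARZ_17616_T1 (0.78) and ARZ_18185_T1 (−0.71) for HMF, ARZ_11139_T1 (1.28) and ARZ_1634_T1 (−1.39) for vanillin, ARZ_11139_T1 (1.09) and ARZ_13841_T1 (−0.88) for 4-hydroxybenzaldehyde, and ARZ_17616_T1 (0.67) and ARZ_1634_T1 (−1.38) for syringaldehyde. ARZ_13841_T1 had 6 and 34 reads in the phenolic aldehyde controls, so its value there rests mostly on 1 control library.

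**Figure D3:**
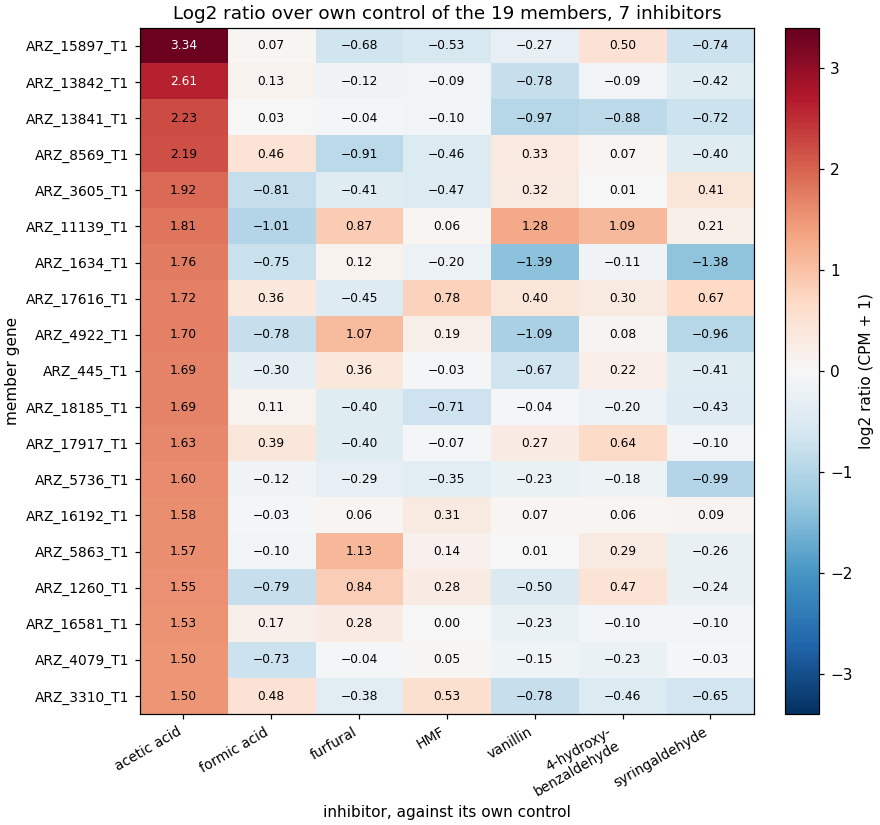
Log2 ratio over its own control (mean CPM plus 1, 2 libraries a group) of each of the 19 member genes, in rows ordered by the acetic acid value, for the 7 inhibitors in columns; red is higher and blue lower than control, and each cell prints its value. The acetic acid column runs from 1.502 to 3.34 and the other columns from −1.39 to 1.28. Of the 19 values, 12 are below 0 for vanillin and 15 for syringaldehyde.

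In edgeR's quasi-likelihood test, run over all genes with Benjamini-Hochberg adjustment and a threshold of 0.05, the members' counts against the controls are also only a description, since the selection used these ratios. With acetic acid 19 of 19 members were called, all higher, where 37.9% of all genes tested were called and 19.7% called higher. Against formic acid, 19 of 19 were called higher with acetic acid, where 25.1% of all genes were called and 11.8% called higher. Formic acid against its control was called at 8 (39.7%), with 2 higher (20.9%) and 6 lower (18.8%). Of the members, 13 had enough reads to be tested in the furan experiment. Furfural was called at 7 of them (34.3% of genes tested), with 5 higher (17.4%) and 2 lower (16.9%), and HMF at 3 (8.45%), 2 of them lower (3.45%). In the phenolic aldehyde experiment 17 members were tested. Vanillin was called at 7 (19.2%), with 1 higher (8.83%) and 6 lower (10.4%). For 4-hydroxybenzaldehyde 2 were called (8.11%), both higher (3.11%), and for syringaldehyde 6 (24.1%), with 1 higher (10.9%) and 5 lower (13.2%). The members left out were ARZ_13841_T1 and ARZ_16581_T1 in both experiments and ARZ_13842_T1, ARZ_17917_T1, ARZ_5736_T1 and ARZ_4079_T1 in the furan experiment only, all with few reads.

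Compounds of the furan and the phenolic aldehyde experiments were compared directly, in 4 comparisons that did not involve a control or an acid. The selection had still capped the size of each R in these same libraries, though not its sign. It left out ARZ_5239_T1, with an R of 1.62 for furfural and −0.77 for HMF. The sizes and counts below are therefore not free of the selection. In structure, HMF is furfural with an added hydroxymethyl group. Between them 8 of the 13 members tested differed, 5 higher and 3 lower with furfural, where 34.2% of all genes tested differed (17.2% higher and 17.0% lower). The 4 most abundant members were all among the 5. ARZ_5863_T1 was at 389.8 and 548 CPM with furfural, 218 and 253 CPM with HMF, and 218 and 209 CPM in the controls; the furfural libraries lay above the rest. Its log2 difference between furfural and HMF was 1.06 ± 0.15 (SE), with an adjusted p of 1.56e-05. ARZ_4922_T1 differed by 0.94 ± 0.14 (adjusted p = 1.48e-05), ARZ_1260_T1 by 0.62 ± 0.13 (0.000796) and ARZ_445_T1 by 0.45 ± 0.15 (0.0231). The call was lost for ARZ_1260_T1 without furfural replicate 2 (adjusted p = 0.0528) and for ARZ_445_T1 without furfural replicate 1 (0.475) or HMF replicate 4 (0.0722). ARZ_17616_T1 went the other way, with 7.67 and 6.27 CPM with furfural and 16.2 and 19.01 CPM with HMF, a log2 difference of −1.28 ± 0.26 (adjusted p = 0.000576). Of its controls, 1 lay among the furfural libraries (6.95 CPM) and 1 between furfural and HMF (12.8 CPM). The others that differed were ARZ_11139_T1 (0.87), ARZ_8569_T1 (−0.40) and ARZ_3310_T1 (−0.94), whose calls were all lost without furfural replicate 2 (adjusted p from 0.0564 to 0.160). The call of ARZ_11139_T1 was also lost under DESeq2 (adjusted p = 0.0623) and without HMF replicate 3 (0.158) or 4 (0.258), that of ARZ_8569_T1 without HMF replicate 4 (0.125) or furfural replicate 1 (0.142), and that of ARZ_3310_T1 without HMF replicate 3 (0.0560). For ARZ_15897_T1 the difference was −0.08 with a 95% interval of −0.40 to 0.23. Without furfural replicate 2 the count of members that differed was 4.

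Vanillin carries 1 methoxy group more than 4-hydroxybenzaldehyde, and syringaldehyde 2 more. At 0.1 g/L each, and so at unequal molar doses, 6 of the 17 members tested differed between vanillin and 4-hydroxybenzaldehyde, all lower with vanillin, where 17.5% of all genes differed (8.89% higher and 8.62% lower). None was higher by edgeR or DESeq2, with adjusted p-values or at an unadjusted p under 0.05 (0 in each case). ARZ_4922_T1 was at 147 and 130.5 CPM with vanillin, 316 and 311 CPM with 4-hydroxybenzaldehyde, and 269.7 and 323 CPM in the controls, so vanillin stood below both. Its log2 difference was −1.22 ± 0.18 (edgeR quasi-likelihood adjusted p = 0.00106). ARZ_1260_T1 was at 106 and 99.5 CPM with vanillin and 209 and 194 CPM with 4-hydroxybenzaldehyde, a log2 difference of −1.02 ± 0.14 (adjusted p = 0.000698). ARZ_13842_T1 had 0 reads in both vanillin libraries and 8 and 11 with 4-hydroxybenzaldehyde, 8.43-fold lower when 3 reads are allowed over the vanillin group. That fold makes no allowance for the error of the 4-hydroxybenzaldehyde reads. The gene fell below the filter of 10 CPM, and DESeq2 called only the other 5. The remaining members that differed were ARZ_445_T1, ARZ_15897_T1 and ARZ_1634_T1, named after their values were seen. Leaving out any 1 library of the 2 groups left 2 or 3 of the 6; the calls of ARZ_4922_T1 and ARZ_1260_T1 were kept each time.

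Between syringaldehyde and 4-hydroxybenzaldehyde 7 of the 17 differed, all lower with syringaldehyde, where 21.3% of all genes differed (10.2% higher and 11.1% lower). The same 4-hydroxybenzaldehyde libraries served in the comparison with vanillin, so these counts are not independent. ARZ_15897_T1, ARZ_4922_T1, ARZ_1634_T1, ARZ_445_T1 and ARZ_1260_T1 were called in both. With all libraries none was higher by edgeR or DESeq2, with adjusted p-values or at an unadjusted p under 0.05 (0 in each case); without syringaldehyde replicate 2, 1 member was called higher. ARZ_15897_T1 was at 16.9 and 30.2 CPM with syringaldehyde, 56.4 and 57.5 CPM with 4-hydroxybenzaldehyde, and 40.3 and 39.7 CPM in the controls, with the 3 groups separate. Its log2 difference was −1.31 ± 0.20 (edgeR quasi-likelihood adjusted p = 0.000905). ARZ_4922_T1 was at 122.5 and 181 CPM with syringaldehyde and differed from 4-hydroxybenzaldehyde by −1.08 ± 0.18 (adjusted p = 0.00157). The remaining calls were ARZ_11139_T1, ARZ_1634_T1, ARZ_445_T1, ARZ_1260_T1 and ARZ_8569_T1, named after their values were seen. That of ARZ_8569_T1 was marginal (edgeR adjusted p = 0.0497; DESeq2 0.0470). It was lost in edgeR with median-of-ratios scaling (0.0561), no filter (0.0552), the 10 CPM filter (0.0578), the replicate block (0.0635) or only the 2 groups (0.0571). Without 4-hydroxybenzaldehyde replicate 1 or 2 the count was 4. Vanillin and syringaldehyde differed at 2 of the 17, both higher with vanillin, where 4.73% of all genes differed (2.84% higher and 1.89% lower). One was ARZ_11139_T1, with 298 and 226 CPM with vanillin, 131 and 118 CPM with syringaldehyde and 111 and 104 CPM in the controls, a log2 difference of 1.04 ± 0.17 (edgeR quasi-likelihood adjusted p = 0.00359), lost without vanillin replicate 1 (0.0766). The second was ARZ_8569_T1, named after its values were seen (0.72 ± 0.17, adjusted p = 0.0276), a call lost without syringaldehyde replicate 1 (0.0598), vanillin replicate 1 (0.160) or vanillin replicate 2 (0.135). Neither tool called a member lower (0 by edgeR and by DESeq2), and at an unadjusted p under 0.05 each gave 1. The count was 0 without vanillin replicate 1. For ARZ_4922_T1 the difference between these aldehydes was −0.14 with a 95% interval of −0.53 to 0.25.

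**Figure D4:**
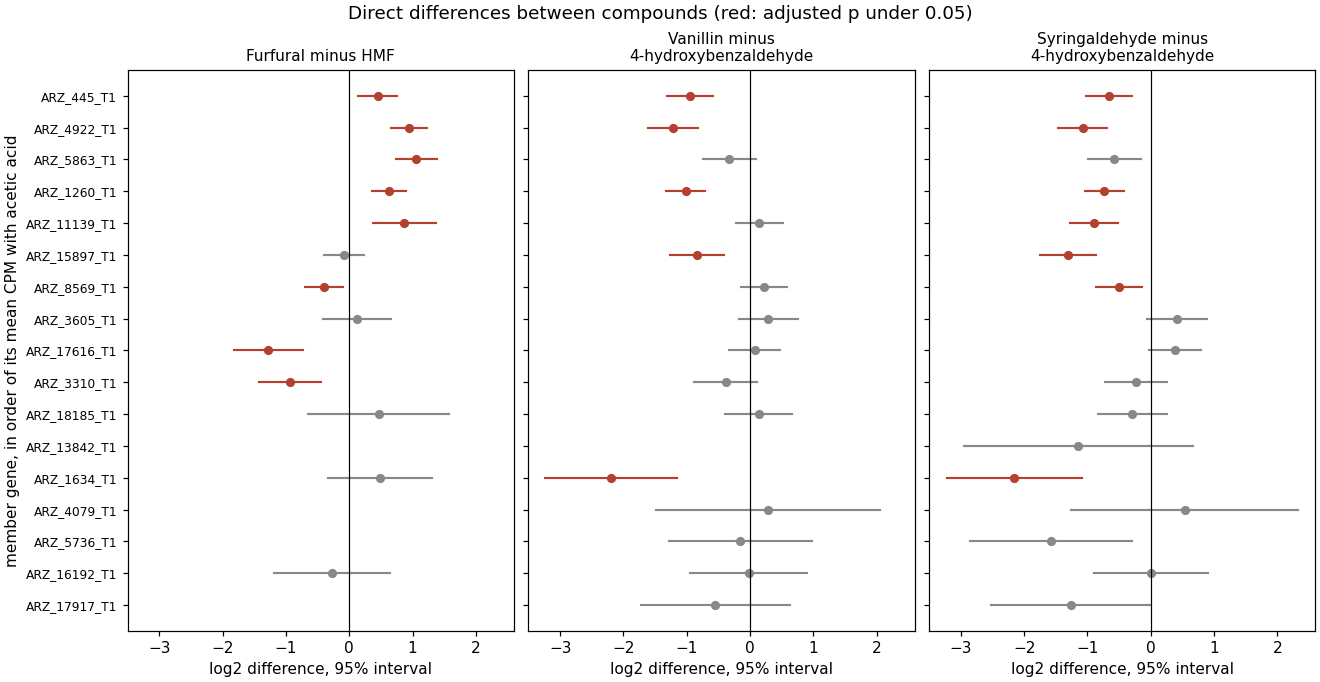
Log2 difference between 2 compounds of one experiment (points) with its 95% interval (lines) for the member genes with enough reads, ordered by level with acetic acid; red marks an edgeR quasi-likelihood adjusted p under 0.05 and grey the rest. ARZ_13842_T1 is not drawn for vanillin, where it had 0 reads. The 4 genes with the highest levels lie to the right for furfural against HMF and to the left in both comparisons with 4-hydroxybenzaldehyde. Of these, ARZ_5863_T1 is grey in both comparisons with 4-hydroxybenzaldehyde (−0.33 for vanillin and −0.58 for syringaldehyde, edgeR quasi-likelihood adjusted p = 0.265 and 0.0517).

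The members with high acetic acid levels did not share 1 pattern over the other inhibitors. With furfural the R of ARZ_445_T1, ARZ_4922_T1, ARZ_5863_T1 and ARZ_1260_T1 ran from 0.36 to 1.13, whereas that of ARZ_15897_T1 was −0.68 and that of ARZ_8569_T1 was −0.91. Across the 20 libraries, with each experiment centred on its control, the log2 levels of ARZ_4922_T1 and ARZ_1260_T1 followed each other most closely of the 171 pairs of members (Pearson r = 0.94), and over the 14 furan and phenolic aldehyde libraries alone r was 0.93. The median r over the 171 pairs was 0.71 with all libraries and 0.08 without the weak acid libraries. The values share their controls within an experiment and the members were chosen on these values, so these coefficients are a description.

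**Figure D5:**
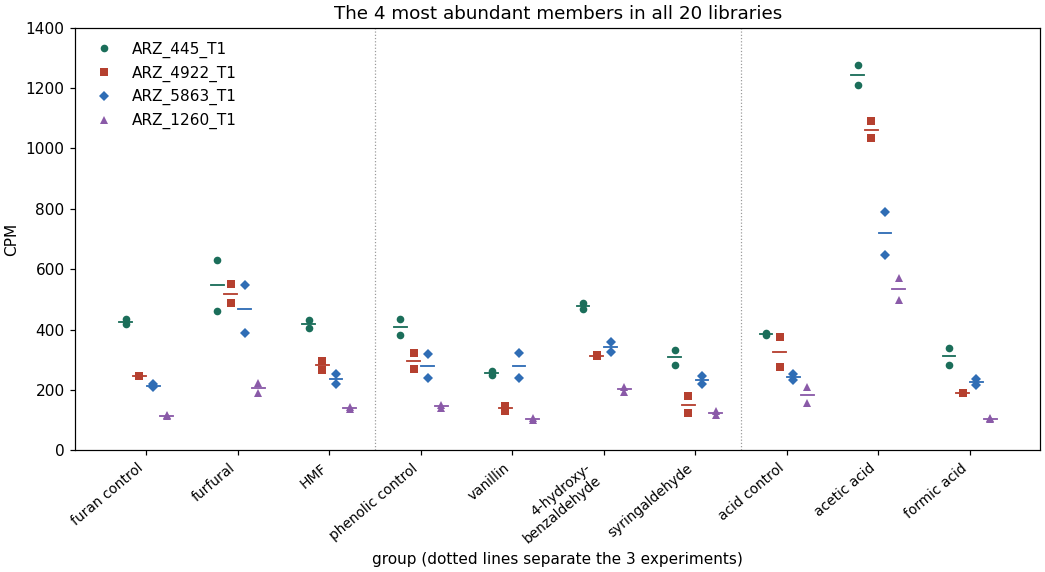
CPM of the 4 most abundant member genes in all 20 libraries; each symbol is 1 library, short lines are means of 2 libraries, and dotted lines separate the 3 experiments, which were scaled separately. Each gene is highest with acetic acid, next highest with furfural, and ARZ_4922_T1 is lowest with vanillin at 139 CPM.

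Genes with the most similar pattern to the top members were sought among the 11506 with a mean of at least 10 CPM, by Pearson r over the 20 libraries centred in the same way. For ARZ_15897_T1 they were ARZ_8569_T1, itself a member (r = 0.93), and ARZ_12536_T1 (r = 0.92), which was at 14.6 CPM in the acid control, 29.5 CPM with acetic acid and 15.3 CPM with formic acid. For ARZ_13842_T1 they were ARZ_9195_T1 (r = 0.93, with 27.9, 60.1 and 31.0 CPM) and ARZ_15897_T1 (r = 0.93). The member ARZ_13841_T1, with a mean under 10 CPM, was outside this search, and its r with ARZ_13842_T1 was also 0.93. ARZ_12536_T1 and ARZ_9195_T1 were thus also highest with acetic acid among the weak acid groups. Their R for acetic acid, 0.97 and 1.08, fell short of the limit of 1.5. The search included the acetic acid libraries on which the members were chosen, so these r are a description. Over the 14 furan and phenolic aldehyde libraries, r of ARZ_15897_T1 was 0.66 with ARZ_8569_T1 and 0.35 with ARZ_13842_T1.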

How the data were processed

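As deposited, the 3 tables (furans, phenolic aldehydes, weak acids) hold raw read counts, whole numbers for 18830 gene identifiers in 6, 8 and 6 libraries. Aligner, counter and gene models were not given in the sources used here, and the build that the submitters' processing notes name, Sscrofa 10.2, is a pig assembly that does not go with the identifiers. Genes with close copies are uncertain, since the treatment of shared reads is unknown.

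CPM are counts divided by the library total, times 1000000. The members and the gene choices were made with earlier results of these data known. Genes were tested in edgeR 4.0.16 (R 4.3.3) within each table, with all its groups, filterByExpr, TMM scaling and robust quasi-likelihood F-tests, two-sided, Benjamini-Hochberg adjusted over 16398 furan, 17495 phenolic aldehyde and 16714 weak acid genes. Standard errors come from the F statistics. The procedure was run on simulated counts with the same spread set for all experiments, whereas the fitted spread differed between them. In the direct comparisons 2.49% to 6.25% of the simulated calls were false. Changes were placed only in better-read genes, so members with few reads were not covered. Named members were those with the 2 largest values for acetic acid (ratio, level, gap to formic acid), the extreme ratio for each other inhibitor, the 2 largest changes of at least 2-fold and 10 CPM in each direction in the direct comparisons, and those nearest the limits. Members outside that rule that are also described, chosen after their values were seen, are ARZ_3605_T1, ARZ_17917_T1, ARZ_16581_T1 and ARZ_5736_T1. Planned gene lists by product name could not be used. Alternatives were DESeq2 1.42.0, median-of-ratios scaling, other filters and pseudocounts, fits of 2 groups only, a replicate block and leaving out each library. The libraries of a group differed by more than counting noise in all 10 groups. Figures were drawn with matplotlib 3.10.9.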

Additional observations from a re-analysis of the deposited data

How the results depend on the processing

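The list of 19 genes depended on its limits. It held 11 genes with a pseudocount of 5 CPM, 9 of them shared, since that pseudocount lowers the ratios of genes with few reads. TMM or median-of-ratios scaling gave 17, all shared. Those lost were ARZ_8569_T1 and ARZ_3310_T1, which no longer met the limit for formic acid. Their R for acetic acid stayed above its limit (2.21 and 1.52 with TMM scaling). Leaving out 1 library gave 16 to 24 genes; 7 of the 19 stayed in every time, and 28 other genes entered at least once.

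Leaving out 1 library of the 2 groups compared, the members called numbered 4 to 6 for furfural against HMF, 2 to 3 for vanillin against 4-hydroxybenzaldehyde, 0 to 3 for vanillin against syringaldehyde and 4 to 8 for syringaldehyde against 4-hydroxybenzaldehyde, with a lone library assumed to vary like the other groups. With only the 2 groups in the fit, vanillin and syringaldehyde differed at 1 member. No direct difference called among the members with all libraries changed direction under any alternative in which the gene was tested. Differences that were not called were not checked for direction.

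Same-numbered libraries were not paired by the labels, and their deviations from the group means correlated by −0.12 to 0.17 over genes in the 3 experiments. With the replicate block the counts were 6, 2 and 6 in the vanillin against 4-hydroxybenzaldehyde, vanillin against syringaldehyde, and syringaldehyde against 4-hydroxybenzaldehyde comparisons. No paired analysis was possible for furfural against HMF because their libraries are numbered 1 and 2 and 3 and 4.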

Other observations

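Control levels of several members differed between the experiments, where control and experiment cannot be told apart. ARZ_13842_T1 had 4 and 1 reads in the furan controls, 12 and 16 in the phenolic aldehyde controls and 25 and 45 in the acid controls. ARZ_4079_T1 had 2 and 0, 14 and 11, and 36 and 61 reads, in the same order. ARZ_16581_T1 had no read in 8 of the 20 libraries, including both furan controls, and 52 and 53 reads with acetic acid. The furan control was the lowest of the 3 controls for 11 of the 19 members, where it was the lowest for 38.6% of all genes, and the acid control was the lowest for the other 8. The phenolic aldehyde control was the highest for 9 members, where it was the highest for 40.3% of all genes. The acid control was the highest for 6, ARZ_13842_T1 and ARZ_4079_T1 among them. How often the acid control was the lowest or the highest over all genes was not counted.

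The consecutive identifiers ARZ_13841_T1 and ARZ_13842_T1 were the only members numbered next to each other. Their neighbours in number had almost no reads: ARZ_13840_T1 had 8 and ARZ_13843_T1 had 13 in the 6 weak acid libraries together, where ARZ_13841_T1 and ARZ_13842_T1 had 275 and 713. Whether consecutive numbers mean neighbouring genes is not given in the sources used here.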
